A study of Mus musculus with 8 samples.

Results

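The 44 genes described here drive, build or restrain the cell division cycle, and they were read in 8 samples of liver RNA from male mice on Affymetrix whole-transcript arrays. They were chosen by name, with earlier results of these data known. Of the 44, 20 act at G1/S, the entry into DNA replication, and 18 act in G2/M, the run-up to and passage through mitosis. A further 6 are inhibitors of the cycle or stress proteins. A probe set carrying a single gene symbol was found for 41 of the 44, among 22180 such genes on the array. Ccne2 and Gadd45a are named on probe sets that list several genes, Ccnb1 matched no probe set by symbol, and none of these 3 is given a value. Wild type littermates gave 4 arrays, and mice with the Tm6sf2 E167K variant knocked into their own gene gave the other 4. All are labelled C57BL/6J, and their age is not stated. Tm6sf2 is a membrane protein of the endoplasmic reticulum involved in loading lipid onto very low density lipoprotein. The labels conflict on diet: the series description gives a high-fat diet for 20 weeks, while the note on each sample gives a sucrose-rich fat-free diet or chow for 14 weeks. Which diet these mice ate remains unknown. No label says whether each array is a separate animal, and the p-values cover only the variation seen among these 8 samples.

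Cells leave rest when D-type cyclins with Cdk4, and then cyclin E with Cdk2, inactivate the retinoblastoma family of pocket proteins and release E2F factors, which switch on the genes for replication. Mcm proteins, loaded by Cdc6 and Cdt1, form the helicase that opens replication origins. Later, cyclins A and B with Cdk1, together with the factor Foxm1, drive mitosis. The genes of this step are controlled through promoter elements bound by the DREAM and MuvB complexes. Adult hepatocytes rarely divide, and many are polyploid. In mouse liver E2f8, an atypical E2F that represses E2F targets, is known to take part in making them polyploid.

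The arrays were alike in distribution, with medians of 3.73 to 3.80 on the log2 scale, and any pair correlated at 0.973 to 0.980 over 41345 probe sets. All 10 hepatocyte markers looked at lay above the dim limit on every array. Over the 13449 genes tested by limma, 9 passed an adjusted p of 0.05 (0.0669%).

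No cell cycle gene passed the threshold over all genes: 0 of the 37 tested members had an adjusted p under 0.05, and the lowest was 0.202, for E2f8 and Gadd45b. In knock-in livers the level of E2f8 was at -1.04 relative to wild type (log2, SE 0.26), and the stress proteins Gadd45b and Gadd45g were at -1.46 (SE 0.37) and -1.10 (SE 0.60). Cyclin E1 was at 0.51 (SE 0.16), while cyclins D1 and D2 were at -0.49 (SE 0.28) and -0.50 (SE 0.20). The replication and mitosis genes as groups lay near 0 or close to background. At an unadjusted p under 0.05, without error control, there were 5 of 37 members, which is 13.5%, against 11.3% of all tested genes, so the members' share lay near the background. Of the 5, 2 were higher (Ccne1 and Tpx2; 6.01% of all tested genes were called in that direction) and 3 lower (Ccnd2, E2f8 and Gadd45b; 5.29% of all). Whatever the p, 19 of the 37 had a change above 0, against 51.1% of all tested genes. Changes of -1 or below on the log2 scale were found in 3 of the 37 members and in 0.29% of all tested genes.

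**Figure D1:**
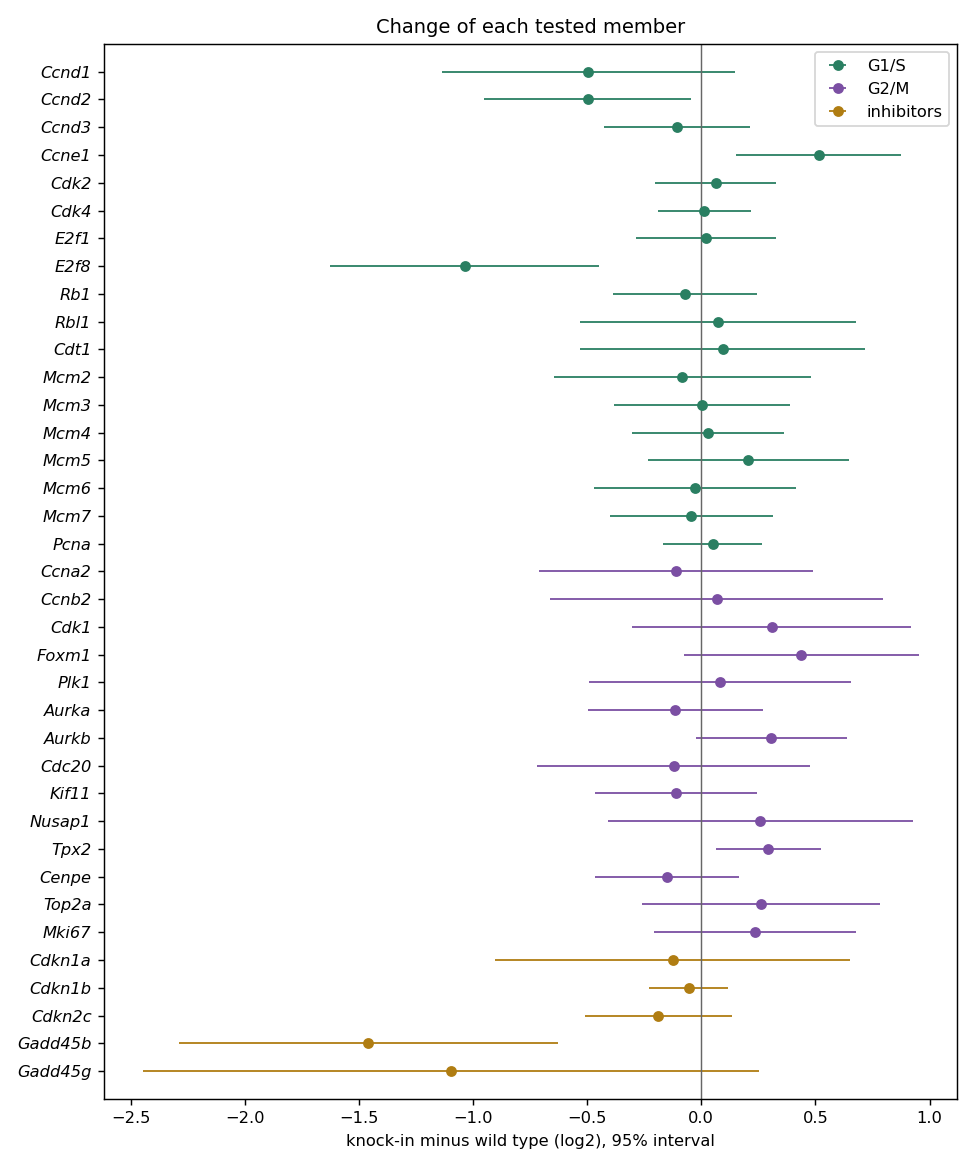
Change of each of the 37 tested members, as knock-in minus wild type on the log2 scale (x axis), with the 95% interval from limma as a bar and the functional class as colour. The 3 points furthest to the left are Gadd45b, Gadd45g and E2f8, and most intervals of G1/S and G2/M genes cross 0.

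Most mitosis genes lay close to the limits used here for background. The tested ones had mean levels of 3.52 to 4.57, beside array medians of 3.73 to 3.80. A probe set counted as dim on an array below the 40th percentile of that array, at 3.46 to 3.50, and a gene was tested when at least 4 of the 8 arrays were above it. By this rule 18 of 19 measured G1/S genes, 14 of 17 G2/M genes and 5 of 5 inhibitors were tested. As a second yardstick, the 95th percentile of 1091 probe sets of olfactory receptors, genes of the nose that liver is not known to use, lay at 3.53 to 3.70. All 8 arrays cleared both limits in 17 of the 18 tested G1/S genes but in 6 of the 14 tested G2/M genes (Ccna2, Ccnb2, Cdk1, Cdc20, Tpx2 and Mki67). The 5 inhibitors cleared both on every array.

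The 4 genes left untested were Cdc6, which loads the Mcm helicase, the spindle checkpoint kinases Bub1 and Bub1b, and Birc5, the survivin of the chromosomal passenger complex. Cdc6, Bub1 and Birc5 were below the dim limit on all 8 arrays. Cdc6 read 3.24, 3.12, 3.10 and 2.76 in wild type and 3.01, 3.21, 3.25 and 3.39 in knock-in. Bub1b was above it on 3 arrays, of which wild type replicate 1, at 4.21, was the highest. Such values carry no order, and no fold is given for them.

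**Figure D2:**
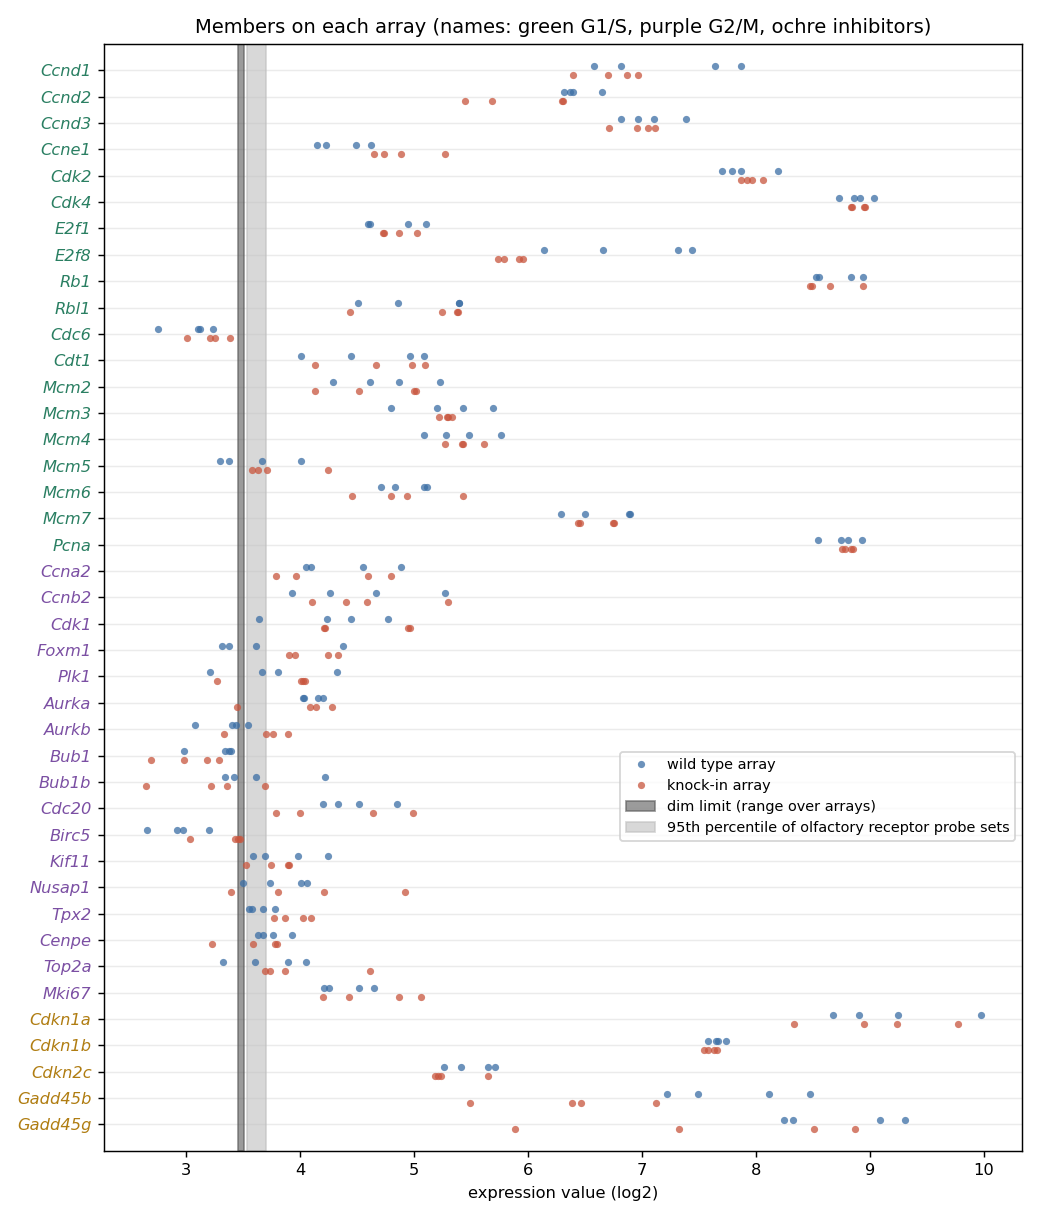
Expression value (x axis, log2) of the 41 measured members on each array, 1 point per array, wild type in blue and knock-in in red, with the dim limit and the olfactory receptor limit as shaded bands. The tested G2/M members (purple names) lie beside the bands, with mean levels from 3.52 to 4.57, while Cdk2, Cdk4, Pcna and the inhibitors lie to the right of that range. Levels of different probe sets are not comparable as amounts of RNA.

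The promoters of several of these genes are shown because G1/S and G2/M genes are controlled in part through different promoter elements. E2f8, Ccne1 and Gadd45b are shown as the members with a promoter entry and an unadjusted p under 0.05. Windows of 250 bases before the annotated start were taken from RefSeq (GRCm38.p6), where 35 of the 44 members had an entry. Capitals mark, on either strand, the E2F words TTTCCCGC, TTTGGCGC, TTTCGCGC and TTTGCCGC, the cell cycle homology region TTTGAA and the CCAAT box. Overlapping matches were merged. Mcm6 stands for the replication genes and Ccnb2, cyclin B2, for the mitosis genes.
E2f8 (chr7:48881597-48881846, minus strand): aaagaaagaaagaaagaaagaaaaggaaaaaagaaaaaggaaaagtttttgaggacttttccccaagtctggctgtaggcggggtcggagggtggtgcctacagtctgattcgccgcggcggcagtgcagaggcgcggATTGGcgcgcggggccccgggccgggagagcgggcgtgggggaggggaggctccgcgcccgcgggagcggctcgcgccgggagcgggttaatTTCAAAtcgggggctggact
Ccne1 (chr7:38107491-38107740, minus strand): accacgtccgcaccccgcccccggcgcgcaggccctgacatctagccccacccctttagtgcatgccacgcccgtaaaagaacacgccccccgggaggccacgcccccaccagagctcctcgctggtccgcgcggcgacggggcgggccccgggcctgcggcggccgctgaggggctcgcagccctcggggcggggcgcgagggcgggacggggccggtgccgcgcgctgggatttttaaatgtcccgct
Gadd45b (chr10:80929841-80930090, plus strand): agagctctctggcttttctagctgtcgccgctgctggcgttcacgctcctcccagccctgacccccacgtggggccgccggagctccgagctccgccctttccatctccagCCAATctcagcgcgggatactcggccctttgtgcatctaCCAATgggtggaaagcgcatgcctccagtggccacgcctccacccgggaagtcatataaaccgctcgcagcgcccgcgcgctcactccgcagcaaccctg
Mcm6 (chr1:128359706-128359955, minus strand): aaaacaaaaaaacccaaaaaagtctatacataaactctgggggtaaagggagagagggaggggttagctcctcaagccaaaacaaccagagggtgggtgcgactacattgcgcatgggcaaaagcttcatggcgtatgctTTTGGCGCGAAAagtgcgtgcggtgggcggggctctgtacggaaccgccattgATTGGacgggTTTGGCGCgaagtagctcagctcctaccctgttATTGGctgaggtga
Ccnb2 (chr9:70421555-70421804, minus strand): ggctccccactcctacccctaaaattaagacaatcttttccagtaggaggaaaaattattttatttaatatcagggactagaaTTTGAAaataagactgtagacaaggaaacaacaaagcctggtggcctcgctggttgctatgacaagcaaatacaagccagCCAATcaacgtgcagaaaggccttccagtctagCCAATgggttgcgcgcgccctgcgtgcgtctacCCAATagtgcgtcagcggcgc

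Mcm6 held 3 E2F words, at -110 to -103, at -106 to -99 on the other strand, overlapping the first, and at -47 to -40 from the start. Ccnb2 held 3 CCAAT boxes and 1 TTTGAA, at -167 to -162. E2f8 held 1 TTTGAA at -20 to -15, on the strand opposite to the printed one and so seen there as TTCAAA, and 1 CCAAT box, Gadd45b held 2 CCAAT boxes, and none of the searched letters was in the Ccne1 window. An E2F word was in 6 of 17 G1/S windows and 1 of 14 G2/M windows, against 1.86% of all 32851 windows. TTTGAA was in 6 of 14 G2/M windows and 2 of 17 G1/S windows, against 16.0% of all. CCAAT was in 12 of 14 G2/M and 10 of 17 G1/S windows, against 33.8% of all, and in 4 of 8 inhibitor windows, which held neither of the other words. A match describes letters, not binding, and these windows were not tested against the expression values.

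The 3 D cyclins, which carry growth signals into the cycle, did not pass the threshold, and Ccnd2 was the only one with an unadjusted p under 0.05. Ccnd1 (cyclin D1, probe set 17498502) read 6.82, 6.58, 7.87 and 7.64 in wild type replicates 1 to 4 and 6.39, 6.96, 6.87 and 6.70 in the knock-in. Wild type replicates 3 and 4 were the highest, and the other 2 lay within the knock-in range. The change of -0.49 had a 95% interval of -1.14 to 0.15 (limma adjusted p = 0.558), and without wild type replicate 3 it was -0.28.

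Ccnd2 (cyclin D2, 17471222) read 6.31, 6.40, 6.65 and 6.37 in wild type and 5.68, 5.45, 6.30 and 6.31 in knock-in arrays. The groups did not overlap, but knock-in replicates 3 and 4 lay just under the lowest wild type array, and replicates 1 and 2 made up most of the difference. Its interval was -0.95 to -0.04 (unadjusted p = 0.0351, adjusted p = 0.383 by limma). Ccnd3, the third D cyclin, was at -0.11 (SE 0.14), with overlapping groups.

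Ccne1 (cyclin E1, the partner of Cdk2 at the start of replication, 17489886) read 4.15, 4.62, 4.22 and 4.49 in wild type and 4.88, 5.27, 4.74 and 4.65 in the knock-in. All 4 knock-in arrays were above all 4 wild type arrays, the closest pair being 4.65 and 4.62. The change was 0.51 (95% interval 0.15 to 0.87), a ratio of 1.43 (unadjusted p = 0.0104, limma adjusted p = 0.294).

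The kinases had narrow intervals around 0. Cdk4, the partner of the D cyclins, read 8.86, 8.73, 9.03 and 8.91 in wild type and 8.84, 8.96, 8.84 and 8.95 in knock-in arrays, a change of 0.01 (95% interval -0.19 to 0.22). Cdk2 was at 0.06 (95% interval -0.20 to 0.33). The groups overlapped in both genes.

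E2f8 (17491378) read 6.14, 6.66, 7.44 and 7.31 in wild type and 5.92, 5.96, 5.79 and 5.74 in the knock-in. The 4 knock-in arrays were tightly grouped below all wild type arrays, with an SD of 0.11, and the wild type arrays were spread, with an SD of 0.60. The change of -1.04 (95% interval -1.63 to -0.45) corresponds to a level 2.05 times as high in wild type (unadjusted p = 0.00318, limma adjusted p = 0.202). Its unadjusted p stayed under 0.05 in each of the 17 alternatives, and its adjusted p was lowest, 0.0748, without wild type replicate 1. Wild type replicates 3 and 4, the highest arrays for E2f8, were also the highest for Ccnd1, Mcm3 and Mcm7.

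E2f1, an activating E2F, was near 0. It read 4.61, 4.60, 5.11 and 4.95 in wild type and 4.87, 4.74, 5.02 and 4.72 in the knock-in, a change of 0.02 (SE 0.14). Of the pocket proteins that restrain E2F, Rb1 read 8.83, 8.93, 8.52 and 8.55 against 8.94, 8.48, 8.49 and 8.65, a change of -0.07 (SE 0.14), and Rbl1 was at 0.07 (SE 0.27). In 4 of 37 members, or 10.8%, the groups did not overlap (Ccnd2, Ccne1, E2f8 and Gadd45b), against 7.16% of all tested genes. Knock-in arrays were the higher ones in 1 of the 4, against 3.96% of all tested genes, and the lower ones in 3, against 3.2%.

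**Figure D3:**
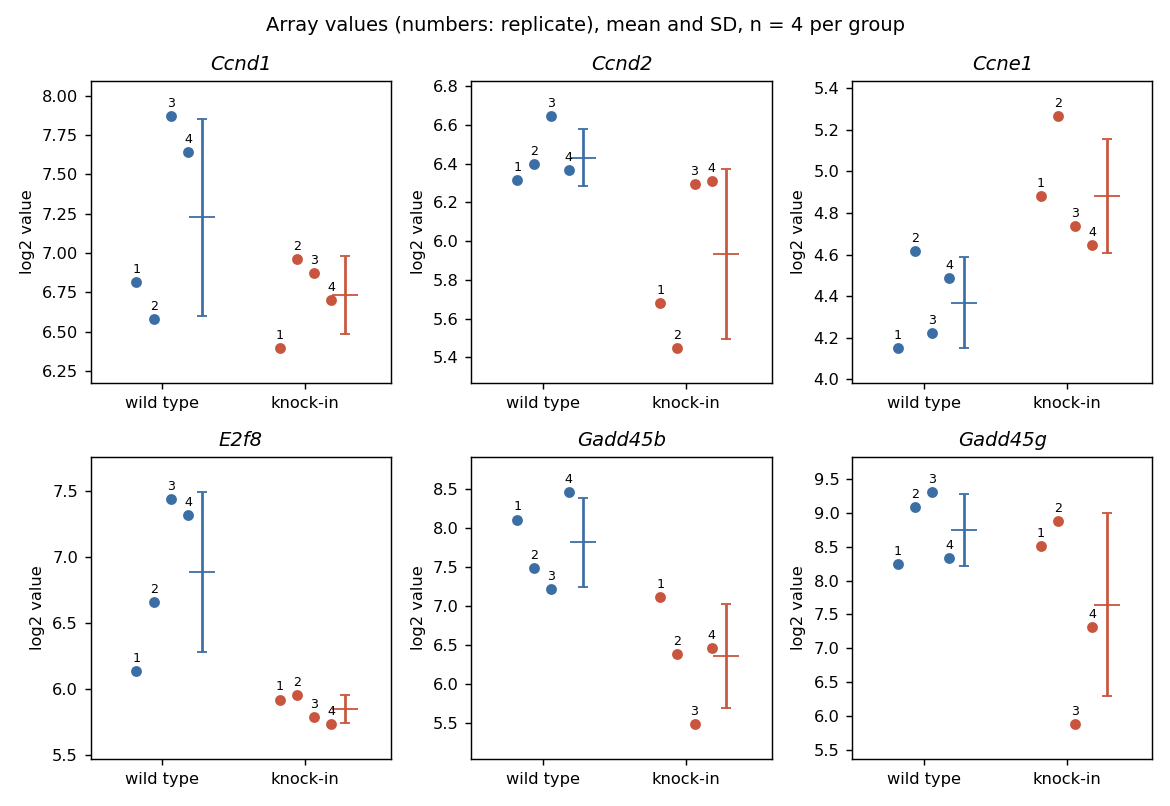
Log2 values of Ccnd1, Ccnd2, Ccne1, E2f8, Gadd45b and Gadd45g on each array, with the replicate number above each point and the mean and SD of 4 arrays beside it; the y axes differ and do not start at 0. E2f8 shows 4 knock-in arrays between 5.74 and 5.96 below a spread wild type group, and Gadd45g shows knock-in replicate 3 at 5.89, far below the rest.

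Replication genes lay on both sides of 0. Of the 8 tested genes of origin licensing and replication, 5 were higher and 3 lower, their changes ran from -0.08 to 0.21, 0 had an unadjusted p under 0.05 (by limma), and 0 had groups that did not overlap. Pcna, the sliding clamp of the replication polymerases, read 8.93, 8.81, 8.55 and 8.74 in wild type and 8.75, 8.84, 8.78 and 8.85 in knock-in arrays, a change of 0.05 (95% interval -0.17 to 0.27).

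The 6 helicase subunits Mcm2 to Mcm7 had a median change of -0.01. Mcm5, at 0.21 (SE 0.19), read 3.66, 3.37, 4.00 and 3.29 in wild type and 3.58, 4.25, 3.63 and 3.71 in the knock-in, with 2 of 4 wild type arrays below the dim limit. The helicase loader Cdt1 was at 0.09 (SE 0.28). Cdt1 had the widest interval of the 8, from -0.53 to 0.72, and Pcna the narrowest.

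G2/M genes had a higher median change than G1/S genes, 0.16 over 14 tested members against 0.01 over 18, beside 0.0046 over all tested genes. Of the 14, 9 were higher and 5 lower, 1 had an unadjusted p under 0.05 and 0 had groups that did not overlap. The G2/M median depended on single arrays. On knock-in replicate 2, 13 of the 14 genes were above their own mean over the 8 arrays and 5 had their highest value. The same counts over all tested genes are not given, so this height cannot be called particular to G2/M genes. Without knock-in replicate 2 the G2/M median was 0.04, without wild type replicate 4 it was 0.10 and without wild type replicate 3 it was 0.28. Over the 7 genes above the dim limit on all 8 arrays it was 0.07, and over the 6 that also cleared the olfactory receptor limit it was 0.15. The median of all 14 G2/M genes less that of the 18 G1/S genes was 0.15, and 0.05, 0.06 and 0.26 without those 3 arrays in turn. No test was made of these medians, since the members were chosen with results of these data known.

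**Figure D4:**
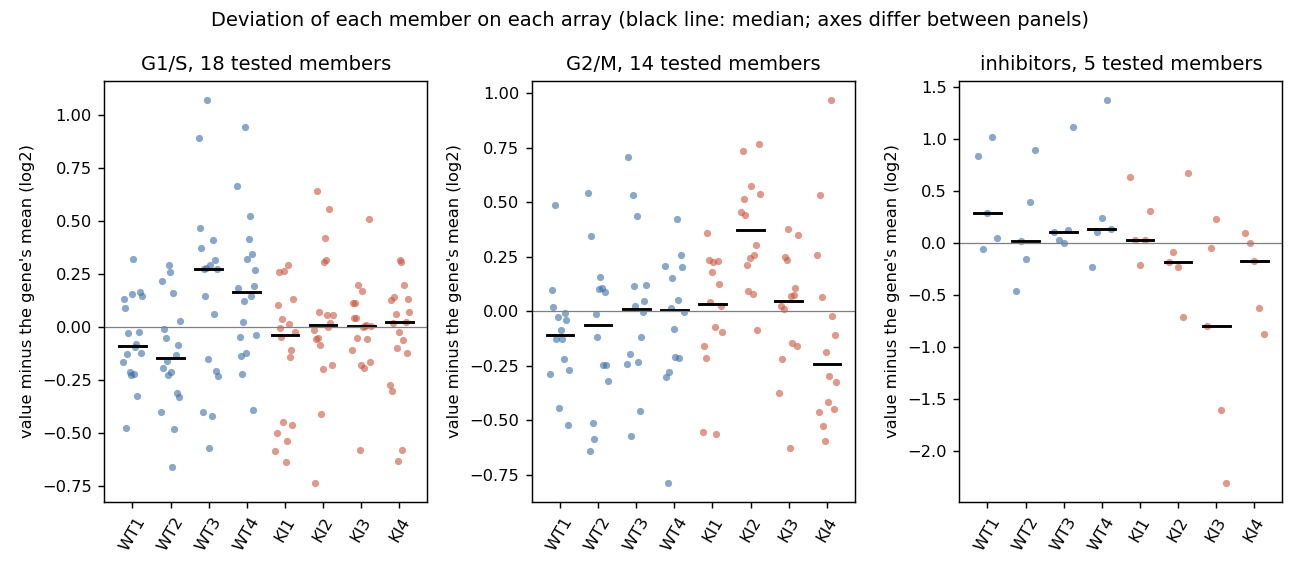
Deviation of each tested member from its own mean over the 8 arrays (y axis, log2) on each array (x axis), by class, with wild type in blue, knock-in in red and the median as a black line. In the G2/M panel knock-in replicate 2 has a median of 0.37 and knock-in replicate 4 of -0.24, and in the G1/S panel wild type replicates 3 and 4 have medians of 0.27 and 0.16.

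Foxm1, the factor that switches on many mitosis genes, read 4.37, 3.38, 3.32 and 3.61 in wild type and 4.25, 4.33, 3.90 and 3.96 in the knock-in. Wild type replicate 1 was the highest of all 8 arrays, and 2 of the other wild type arrays were below the dim limit. It was tested with 4 of 4 knock-in but 2 of 4 wild type arrays above that limit, so the fitted change of 0.44 rests in part on background values (SE 0.23, limma adjusted p = 0.513).

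Ccnb2 read 4.66, 3.93, 5.27 and 4.27 in wild type and 4.41, 5.30, 4.59 and 4.10 in the knock-in, a change of 0.07 (SE 0.32). The spread within each group was far wider than that difference. Ccna2, cyclin A2, was at -0.11 (SE 0.26) and Cdk1, its kinase partner, at 0.31 (SE 0.27). The mitotic kinases Plk1, Aurka and Aurkb were at 0.08 (SE 0.25), -0.11 (SE 0.17) and 0.31 (SE 0.15). Aurkb was above the dim limit on 1 of 4 wild type and 3 of 4 knock-in arrays. It was thus tested mainly through its knock-in arrays, and its fitted change rests in part on background values. It still counts among the higher G2/M genes and in their median.

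Cdc20, which activates the anaphase-promoting complex, was the only tested member of the checkpoint and exit group. It read 4.33, 4.52, 4.85 and 4.20 in wild type and 4.64, 4.99, 3.79 and 4.00 in knock-in arrays, a change of -0.12 (SE 0.26). The knock-in arrays held both its highest and its lowest value.

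Tpx2, a spindle assembly factor that activates Aurka, read 3.78, 3.55, 3.67 and 3.58 in wild type and 4.02, 4.09, 3.87 and 3.77 in the knock-in. The groups overlapped by 1 array each, with knock-in replicate 4 just under wild type replicate 1. The change was 0.29 (95% interval 0.06 to 0.52, unadjusted p = 0.0175, limma adjusted p = 0.327). All wild type values lay only just above the olfactory receptor limit of their array.

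Mki67, the proliferation marker Ki-67, read 4.26, 4.21, 4.64 and 4.52 in wild type and 4.43, 5.06, 4.87 and 4.20 in the knock-in, a change of 0.23 (95% interval -0.21 to 0.68). Knock-in replicate 2 was its highest and knock-in replicate 4 its lowest array. Top2a, which untangles chromosomes, and Nusap1, which binds spindle microtubules, were at 0.26 each (SE 0.23 and 0.29), and the motors Kif11 and Cenpe were at -0.11 (SE 0.16) and -0.15 (SE 0.14).

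All 5 tested inhibitors and stress proteins were lower in the knock-in, by very unequal amounts, from -1.46 to -0.06. Over all tested genes 51.1% were higher. Of the 5, 1 had an unadjusted p under 0.05 by limma, or 20%, against 11.3% of all tested genes. Among 16 tested further inhibitors and targets of p53, 8 were higher and 8 lower. Gadd45b (17235511), a stress-inducible protein that acts on kinase signalling, read 8.11, 7.49, 7.22 and 8.47 in wild type and 7.12, 6.38, 5.49 and 6.47 in the knock-in. The groups did not overlap, but knock-in replicate 1, at 7.12, came close to the lowest wild type array, at 7.22. The change was -1.46 (95% interval -2.29 to -0.63, unadjusted p = 0.00323, limma adjusted p = 0.202), a level 2.75 times as high in wild type.

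Gadd45g (17287361), a relative of Gadd45b, read 8.25, 9.09, 9.31 and 8.33 in wild type and 8.51, 8.87, 5.89 and 7.32 in the knock-in. Knock-in replicates 3 and 4 were below all wild type arrays, and replicates 1 and 2 lay inside the wild type range. The change of -1.10 had an interval of -2.45 to 0.25 (limma adjusted p = 0.532), and it was -0.51 without knock-in replicate 3.

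Cdkn1a (p21, the inhibitor induced by p53) read 9.97, 8.67, 9.24 and 8.90 in wild type and 9.77, 8.95, 8.34 and 9.24 in knock-in arrays. The groups overlapped widely, and the change was -0.12 (SE 0.34). Cdkn2c (p18, which blocks Cdk4 and Cdk6) read 5.71, 5.26, 5.41 and 5.65 against 5.21, 5.19, 5.65 and 5.24, a change of -0.19 (SE 0.14). Cdkn1b (p27) varied little, at -0.06 (95% interval -0.23 to 0.12).

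Further genes of the same steps were taken from lists. Of 34 tested further G1/S genes, 24 were higher and 10 lower, with a median change of 0.10, and 0 passed over all genes by limma. Over all tested genes 51.1% were higher, with a median change of 0.0046. An unadjusted p under 0.05 was found for 4 higher and 1 lower, or 14.7%, near the 11.3% of all tested genes. Gmnn, the geminin that blocks relicensing, was at 0.50 (SE 0.14, adjusted p = 0.253). Dtl, which directs the destruction of Cdt1, was at 0.31 (SE 0.11), the phosphatase Cdc25a at 0.37 (SE 0.13), the fork protein Tipin at 0.36 (SE 0.15) and Skp2, part of the ubiquitin ligase that removes p27, at -0.25 (SE 0.11). In Gmnn and Dtl the 4 knock-in arrays were above all wild type arrays. Groups that did not overlap thus made up 5.88% of the 34 genes. Over all tested genes the share was 7.16% in either direction and 3.96% with the knock-in higher.

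Of 38 tested further G2/M genes, 21 were higher and 17 lower, with a median change of 0.03, and 0 passed over all genes by limma. An unadjusted p under 0.05 was found for 4 higher and 1 lower, or 13.2%, again near the 11.3% of all tested genes. Spc25, a kinetochore protein, was at 0.40 (SE 0.12, adjusted p = 0.260), the spindle protein Dlgap5 at 0.42 (SE 0.14) with 2 of 4 wild type arrays below the dim limit, and the ubiquitin-conjugating enzyme Ube2c at 0.42 (SE 0.15). The change of Dlgap5 thus rests in part on background values. Kif20b, a motor of cell division, was the lower one. It was tested through its wild type arrays, at 3.63 to 3.89 and all above the limit, while 3 of 4 knock-in arrays were below it, so no size is given for its change. Knock-in replicate 2 again stood high, with 28 of the 34 G1/S and 27 of the 38 G2/M genes above their own mean. The share of all tested genes above their own mean on that array is not given.

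Wee1, the kinase that holds Cdk1 inactive and a known output of the circadian clock, had the largest change of these lists, 1.27 (SE 0.40, limma adjusted p = 0.294). It read 5.73, 5.19, 5.56 and 6.07 in wild type and 6.75, 7.47, 7.67 and 5.73 in the knock-in, with knock-in replicate 4 inside the wild type range. A clock score, the mean of 10 clock outputs and repressors minus that of 3 activators, was -1.32, -1.63, -0.96 and 0.04 in wild type and 0.46, 1.51, 1.45 and -0.25 in knock-in arrays. Knock-in replicates 2 and 3 were highest in both. With this score as a covariate the median change was -0.21 for G1/S and -0.22 for G2/M members, and Mki67 was at -0.38 (SE 0.20). Of the 5 members with an unadjusted p under 0.05, 1 kept it with the score, E2f8 at -1.50 (SE 0.40). The other 4 lost it, Ccne1 at 0.30 (SE 0.26), Ccnd2 at -0.30 (SE 0.34), Tpx2 at 0.22 (SE 0.17) and Gadd45b at -1.38 (SE 0.63). Another 4 gained it, Ccnd1 at -1.16 (SE 0.39), Aurka at -0.59 (SE 0.20), Cdk1 at 0.92 (SE 0.38) and Kif11 at -0.49 (SE 0.21), and 0 members passed the adjusted threshold. The share of all tested genes called under this fit is not given, so these counts have no background beside them. Score and genotype move together, and no source used here states the hour of collection.

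Marker lists of cell types overlapped between the groups. Of 55 tested markers on 9 lists, 0 passed over all genes by limma, 4 had an unadjusted p under 0.05 against 11.3% of all tested genes, and the summed linear level of each list overlapped between the groups. Of the 4, Jchain (plasma cells) was at 1.04 (SE 0.25), Lyve1 (sinusoidal endothelium) at 0.73 (SE 0.23), Klf1 (erythroid precursors) at 0.65 (SE 0.19) and Serpina1a (hepatocytes) at -0.35 (SE 0.13). The tested markers of each of these lists lay on both sides of 0. There were 3 higher and 2 lower for B and plasma cells and 4 and 4 for sinusoidal endothelium. For erythroid precursors there were 2 and 2, and for hepatocytes 8 and 2. For B and plasma cells, of which 3 of 5 measured markers were above the dim limit on every array, the wild type sums ran from 124.4 to 189.9 and the knock-in sums from 150.9 to 210.1. For erythroid precursors, with 3 of 4, it ran from 151.9 to 185.4 and 160.8 to 211.6. Their part in the values of the cell cycle genes was not tested. In whole liver RNA, fewer cells in cycle and less RNA per cell cannot be told apart.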

How the data were processed

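Expression was read in 8 liver samples, 4 per genotype, on Affymetrix arrays labelled from 400 ng of total RNA, per the labels' protocols. The deposited table holds log2 values for 41345 probe sets, normalized by the authors; the submitters' processing notes name RMA and limma, with no version, and no source used here gives the annotation or build. RMA makes array distributions nearly equal and compresses dim probe sets. Arrays have no read depth, and their number limits the precision.

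Platform annotation gave 23521 probe sets 1 symbol, 1814 several and 16010 none. Through Entrez identifiers 23328 matched a RefSeq table of GRCm38.p6, and 0 symbols changed. The probe set with the highest mean was kept for each of 22180 genes; each tested member except Rb1 had 1 probe set. Genes with at least 4 of 8 arrays above the dim limit (the 40th percentile over single-symbol probe sets) were tested by limma 3.58.1 in R 4.3.3 (two-sided, genotype as the only term, Benjamini-Hochberg adjustment over 13449 genes, threshold 0.05). A change is the knock-in mean less the wild type mean on the log2 scale, with the model's SE and 95% interval.

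The members and lists were chosen with earlier results of these data known. Values of every array are given for members with unadjusted p under 0.05 and, in each role, for the tested member with the largest change and the one with the highest mean; Ccnd1, E2f1 and the untested Cdc6 were added after their values were seen. Of each further list, up to 4 genes per direction with unadjusted p under 0.05 are named. The fit was tested on simulated data. Samples with the same replicate number did not deviate together (correlations of -0.11, -0.03, -0.04 and 0.10), so no pairing was used.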

Additional observations from a re-analysis of the deposited data

Results flagged for a closer look

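In 3 of the 74 groups of 4 arrays examined among the 37 tested members, 1 array lay far from the other 3, with a gap to them above Dixon's 95% critical value for its share of the group's range; chance gives about 1 in 20 such groups. Rbl1 read 4.44 on knock-in replicate 1, against 5.25 to 5.39 on the others. Plk1 read 3.27 on knock-in replicate 4, below the dim limit, against 4.00 to 4.04. Cdkn2c read 5.65 on knock-in replicate 3, against 5.19 to 5.24.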

How the results depend on the processing

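Under all 17 alternatives 0 members passed the threshold (lowest adjusted p 0.0748), and 4 to 6 had an unadjusted p under 0.05, though not the same genes: with the clock score 1 of the 5, E2f8, was shared. The share of all tested genes with such a p is not given for the alternatives. Counts of members or further genes under them thus have no background beside them. Of the 37 tested members, 15 kept their sign throughout, among them E2f8, Gadd45b, Gadd45g, Ccne1, Ccnd1, Ccnd2, Foxm1 and Tpx2. The filters, the trended prior and the replicate block leave each fitted change as it was and could not turn a sign. The mean of probe sets could turn it only for Rb1. The other alternatives are the ones that could. The unadjusted p was under 0.05 in 17 of 17 alternatives for E2f8, 16 each for Gadd45b and Ccne1, 14 for Tpx2 and 11 for Ccnd2. Of all genes tested, 9 passed the threshold, and this number was 2 with no filter, 27 with the stricter filter, 24 with the mean of probe sets, 73 with a trended and robust prior, 25 with array weights, 2 with the replicate block, 1 with the clock score and 1 to 12 on leaving out 1 array. The replicate block changed no call of a member. In this balanced design it cannot alter a fitted change, so the unmoved medians say nothing about stability. With the clock score, further cell cycle genes with an unadjusted p under 0.05 numbered 5 in place of 11, and the medians were -0.21 for G1/S and -0.22 for G2/M. Signs turned with that score for Cdk4 (-0.037), E2f1 (-0.22), Rb1 (0.25), Rbl1 (-0.19), Cdt1 (-0.43), Mcm3 (-0.28), Mcm4 (-0.16), Ccnb2 (-0.49), Plk1 (-0.51), Aurkb (-0.032), Top2a (-0.26), Mki67 (-0.38) and Cdkn1a (0.44), with array weights for Rbl1 (-0.0023), Mcm3 (-0.0057) and Mcm4 (-0.0003), and with the mean of probe sets for Rb1 (0.0575); the cause was not tested. On leaving out 1 array the sign turned within ranges of -0.0374 to 0.0638 for Cdk4, -0.0511 to 0.12 for E2f1, -0.17 to 0.0043 for Rb1, -0.10 to 0.30 for Rbl1, -0.11 to 0.29 for Cdt1, -0.24 to 0.10 for Mcm2, -0.16 to 0.14 for Mcm3, -0.0747 to 0.15 for Mcm4, -0.20 to 0.12 for Mcm6, -0.16 to 0.0401 for Mcm7, -0.0200 to 0.11 for Pcna, -0.28 to 0.0562 for Ccna2, -0.17 to 0.31 for Ccnb2, -0.10 to 0.27 for Plk1, -0.21 to 0.065 for Aurka, -0.33 to 0.0678 for Cdc20, -0.21 to 0.0124 for Kif11, -0.0198 to 0.49 for Nusap1 and -0.36 to 0.13 for Cdkn1a. Genes near the dim limit leave the test under stricter filters: Mcm5, Foxm1, Plk1, Aurka, Nusap1, Cenpe and Top2a gave no value with the stricter filter, nor did Aurkb, which also left the test under the olfactory receptor limit.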

Other observations

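Among 16 tested further inhibitors and targets of p53, 8 were higher and 8 lower, with a median change of -0.03. Over all genes 0 passed by limma, and 1 had an unadjusted p under 0.05: Zmat3, a p53 target that binds RNA, at 0.30 (SE 0.11, adjusted p = 0.355).

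The arrays on which cycle genes stood high differed between the classes. Wild type replicate 3 held the highest of the 8 values in 9 of the 18 tested G1/S members, among them Ccnd1, Ccnd2, Ccnd3, E2f1 and E2f8, and in 1 of the 14 G2/M members, Plk1. Knock-in replicate 2 held it in 5 G2/M members (Ccnb2, Cdc20, Tpx2, Top2a and Mki67) and in 3 G1/S members (Ccne1, Cdt1 and Mcm5). Knock-in replicate 3 held the lowest value in 3 of the 5 inhibitors, Cdkn1a, Gadd45b and Gadd45g. The same counts over all tested genes are not given, so none of these patterns can be called particular to cycle genes.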
